A study of Obba rivulosa with 6 samples.

Results

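The data describe the early shift in gene expression of Obba rivulosa growing on spruce wood, as the comparison of 4 weeks with 2 weeks of growth. It was chosen by label: 2 libraries are titled as 4 weeks of growth and 2 as 2 weeks, so 4 of the 6 libraries of the series enter the comparison, and the 2 libraries of week 8 serve to estimate the spread and are set beside a few models. All libraries came from the monokaryotic strain 3 A-2, listed with the dikaryotic strain FBCC1032. The fungus was grown in the dark, without shaking, on Norway spruce sticks laid over water agar, from a homogenized liquid pre-culture. The weeks therefore share strain, wood and kind of inoculum, and differ in the time of growth. The labels do not say if all cultures came from the same pre-culture, or if library preparation differed by week. Nothing in the labels tells if the libraries of a week were separate cultures. The p-values hence rest on the spread between these libraries, which may be technical. The series asked what the fungus needs during long growth on wood, with weight on enzymes that act on carbohydrates and on central carbon metabolism.

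White-rot fungi are basidiomycetes that break down lignin together with the polysaccharides of wood. They secrete oxidative enzymes such as laccases and peroxidases, which attack lignin, and hydrolases, which release sugars from cellulose and hemicellulose. Obba rivulosa is known for growing well on softwood and for removing lignin selectively. The deposited files name each transcript by a gene model identifier and pair it with no product. The changes are therefore described by level, size, length and naming of the gene models, not by enzyme class, and the identity of the culture could not be checked against marker genes.

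Read depth was even, from 4908235 to 4974674 expected counts in the week 4 libraries and from 4980809 to 5104386 in those of week 2. The week 4 libraries listed 12098 and 12131 gene models, against 12051 and 12064 in the week 2 libraries. In the 6 libraries together, 12424 gene models were listed and 10889 had enough counts to be tested. At least 10 FPKM was reached by 8146 and 7998 models in the week 4 libraries, against 7910 and 7898 in those of week 2. FPKM is the number of mapped fragments per kilobase of model, scaled to the size of the library, so it gives the level of a transcript relative to the rest of its library. In such bulk samples, fewer active cells and less RNA per cell cannot be told apart.

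At week 4, 19.5% of the tested models had risen against week 2 and 17.7% had fallen, which made 4050 changed models (37.2%) by the quasi-likelihood test of edgeR at an adjusted p below 0.05. The rises numbered 2123 and the falls 1927. Without week 2 replicate 1 the changed models numbered 2053, and without week 2 replicate 2 they numbered 2218. The changes were moderate in the main. The median risen model changed by 1.13 on the log2 scale and the median fallen model by -0.88, against -0.001 over all tested models. A change of at least 2-fold was called for 18.5% of the models, 11.3% risen and 7.16% fallen.

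Counted from a bound upward, rises outnumbered falls at the lower bounds, and falls outnumbered rises at 16-fold and 32-fold. Among the called changes below 2-fold, falls outnumbered rises. At a bound of 1.5-fold, 1927 models had risen and 1622 had fallen. At a bound of 2-fold, 1234 models had risen and 780 had fallen, and at 4-fold 369 had risen and 239 had fallen. At 8-fold the numbers were close, 112 risen and 102 fallen, and this order turned round with upper quartile scaling (103 and 105) and without week 4 replicate 2 (96 and 110). At 16-fold there were 31 risen and 42 fallen models, an order that turned round without week 4 replicate 1 (48 and 45). At 32-fold there were 6 risen and 13 fallen models. The 32-fold counts were 11 and 12 without week 2 replicate 1, 12 and 12 without week 2 replicate 2, 12 and 14 without week 4 replicate 1, 5 and 20 without week 4 replicate 2, and 10 and 15 with no filter on low counts. With limma on log2(FPKM + 1), which shrinks the folds of low models, they were 2 and 8. Of these 19 models, 2 had no count in 1 of the weeks, so that their fitted fold depends on the prior count, and 6 shared reads with similar models. The fallen ones were not scarce transcripts: their median level was 13.9 FPKM at week 4, against 504 FPKM at week 2. The 6 risen ones had a median of 98.6 FPKM at week 4, against 2.30 FPKM at week 2.

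A large part of the transcriptome moved little. For 5576 models (51.2% of those tested) the 95% interval of the fold change, not adjusted for multiple tests, lay within 2-fold in either direction, and 608 of these were called changed. Of the 6839 models not called, 4968 had such an interval. The other 1871 had intervals reaching beyond 2-fold, so for them a 2-fold change in at least one direction was not excluded. The median standard error of a log2 fold change was 0.20. Without asking for a test, 4023 models were higher in both week 4 libraries than in both of week 2, and 3664 were lower in both. Together these were 70.6% of the tested models. Every one of the 4050 called models (37.2% of those tested) was among them. Calls and separation rest on the same libraries, so this gives the calls no separate support.

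**Figure D1:**
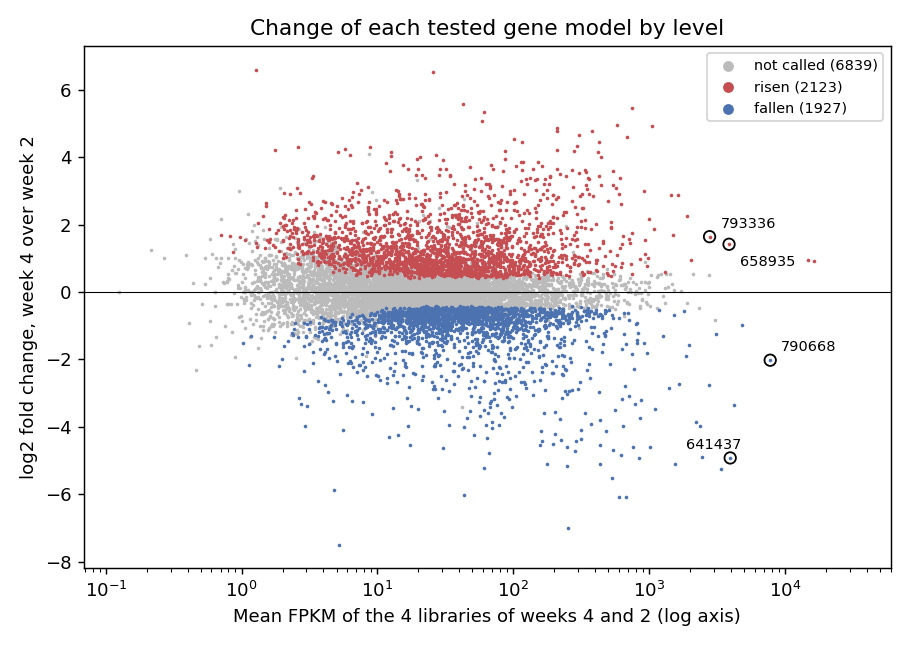
Each point is a tested gene model, placed by its mean FPKM over the 4 libraries (log axis) and by its log2 fold change of week 4 over week 2. Red points rose (2123), blue points fell (1927) and grey points were not called (6839). The 4 circled models are described in the text, and the widest falls include models well above 100 FPKM.

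Falls outnumbered rises among the most abundant models, and rises outnumbered falls among the scarce ones, where both were less frequent than over all models. Models were classed by their mean FPKM over the 4 libraries. Below 10 FPKM, 444 of 2752 models had risen and 195 had fallen (16.1% and 7.09%, against 19.5% and 17.7% of all models). Between 10 and 100 FPKM the directions were nearly even, with 1295 risen and 1319 fallen of 6730. From 100 to 1000 FPKM, 372 of 1353 models had risen and 392 had fallen. At 1000 FPKM and above, 12 of 54 had risen and 21 had fallen, 17 of the falls and 8 of the rises being at least 2-fold. Without week 2 replicate 1 the last class held 8 risen and 17 fallen models, and without week 2 replicate 2 it held 7 and 17. The order in the lowest and the highest class was the same under all 16 alternatives, while that from 10 to 100 FPKM turned round in 10 of them, DESeq2 (1157 risen and 1030 fallen) included. From 100 to 1000 FPKM it turned round with total counts only, with both limma fits and without week 2 replicate 1 (222 risen and 218 fallen). Precision differed too, with a median standard error of 0.34 on the log2 scale below 10 FPKM and 0.19 between 10 and 100 FPKM, so fewer changes could be called among the scarce models.

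Few models went from below 1 FPKM to at least 10 FPKM, or the other way. At least 1 FPKM was reached by 11383 and 11400 models in the week 4 libraries, against 11233 and 11251 in those of week 2. At least 10 FPKM in both libraries was reached by 7718 models at week 4 and by 7713 at week 2, and 7166 reached it in all 4 libraries. No model was below 1 FPKM in both week 4 libraries after at least 10 FPKM in both week 2 libraries. In the other direction there were 3 such models, and 1 of them stood at 59.2 and 42.6 FPKM at week 4, against 0.55 and 0.54 FPKM at week 2. It held 552 counts in the week 4 libraries and 6 in those of week 2, a ratio of 93.9 after scaling by library totals, with an exact 95% counting interval from 42.9 to 257. The other two reached 10.8 to 11.9 FPKM in the week 4 libraries from 2 and 8 counts over both week 2 libraries. Their ratios were 19.4, with a counting interval from 5.01 to 166, and 17.0, with an interval from 8.36 to 40.1. These intervals cover counting error only. The 3 models and the bounds of 1 and 10 FPKM were singled out after their values were seen.

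On the scale of reads, the shift between the weeks was wider than the differences between libraries of a week. The measure used is the part of the reads of one library that would have to move to other models to give the profile of another. Between a week 4 and a week 2 library it was 26.8% and 26.6% for week 4 replicate 1, and 30.7% and 30.3% for week 4 replicate 2. Between the libraries of week 4 it was 12.9%, and between those of week 2 it was 4.15%. All 4 differences between weeks thus exceeded both differences within a week. Their mean was 28.6% from expected counts, 29.99% from shares of FPKM and 26.6% when the 10 most abundant models of either library were dropped.

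**Figure D2:**
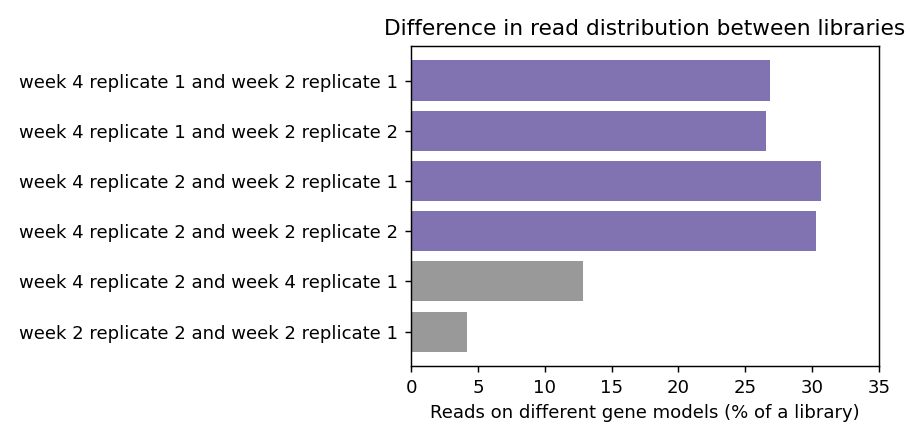
Bars give the part of the reads, in percent of a library, that lay on different gene models in 2 libraries. The 4 purple bars compare week 4 with week 2 (26.6% to 30.7%), and the grey bars compare the libraries within week 4 (12.9%) and within week 2 (4.15%).

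The libraries of week 4 were less alike than those of week 2, and replicate 2 lay farther from week 2. Of the 1927 fallen models, 71.3% had a smaller read share in week 4 replicate 2 than in replicate 1, against 59.8% of all tested models. Their median log2 difference from the week 2 mean was -0.93 in replicate 2 and -0.73 in replicate 1. Of the risen models, 52.1% had a larger share in replicate 2, against 40.2% of all models. Their median difference from week 2 was 1.08 in replicate 2 and 1.04 in replicate 1. Over all tested models the median difference from week 2 was -0.025 in replicate 2 and 0.064 in replicate 1. These differences were computed from log2(CPM + 1) with total counts as the scale.

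The reads lost after week 2 came from few models, and the reads gained were spread over more. Averaged over the libraries of a week, 28.0 percentage points of the reads moved, from 5814 models with a smaller share at week 4 to 6551 with a larger share. A set of 77 models made up 50% of the loss, while 197 models were needed for 50% of the gain. The 10 largest losses amounted to 6.14 percentage points and the 10 largest gains to 3.27. The 77 models held 3.80% of the reads at week 4, against 17.8% at week 2, and their median level was 138 FPKM at week 4, against 1155 FPKM at week 2. The 197 models held 21.5% of the reads at week 4, against 7.52% at week 2, and had a median level of 430 FPKM at week 4, against 86.4 FPKM at week 2. These models were picked by the change itself, so their levels, and their calls given next, describe the shift and do not test it. By the edgeR test, 73 of the 77 were called fallen and 180 of the 197 were called risen, against 17.7% and 19.5% of all models. All models called fallen together carried 87.0% of the loss, and all called risen carried 80.3% of the gain.

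**Figure D3:**
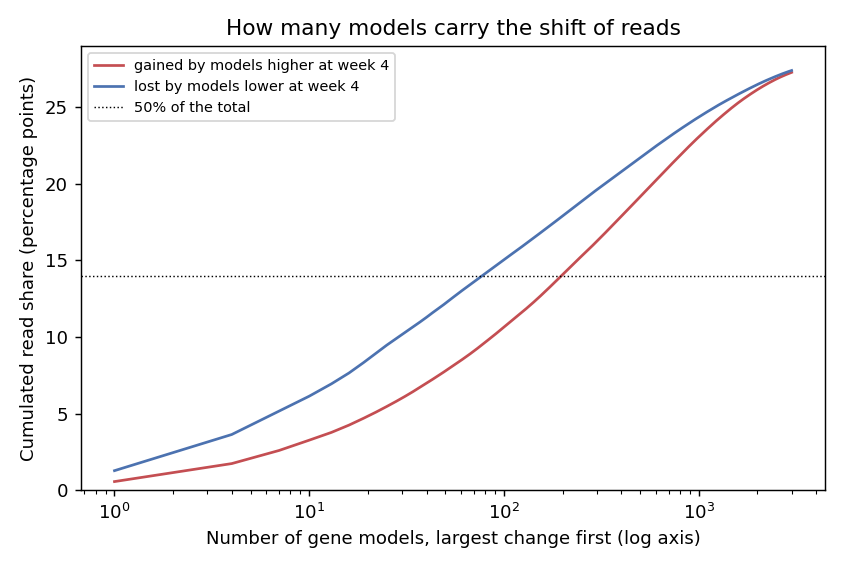
The curves add up the read share, in percentage points, lost (blue) or gained (red) by week 4, over the number of gene models taken from the largest change down (log axis). The blue curve crosses 50% of the total at 77 models and the red one at 197.

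The summed share of the 10 most abundant models of a library was lower at week 4, at 6.08% and 5.69% of the reads, against 7.69% and 8.02% at week 2. Neither week 4 value reached those of week 2. The exact two-sided permutation test gave p = 0.33, the smallest value that 2 libraries against 2 allow.

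Among models with whole counts that changed at least 2-fold without overlap between the weeks, the 2 largest falls and the 2 largest rises in mean FPKM are described here; a choice by FPKM favours abundant transcripts. Model jgi|Obbri1|790668|fgenesh1_kg.29_#_16_#_Locus15v1rpkm4662.60, of 881 bases, had 3141 and 3125 FPKM in the week 4 libraries, against 12666 and 12282 FPKM in those of week 2. It had the highest FPKM of all models in both week 2 libraries and ranked 10 and 5 in the week 4 libraries. The libraries of a week nearly coincided, and the weeks did not overlap, which was a condition of the choice. In the edgeR test it fell by 2.02 ± 0.27 on the log2 scale (SE), at an adjusted p of 0.000387.

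Model jgi|Obbri1|641437|CE641260_965, of 1717 bases, had 243 and 271 FPKM at week 4, against 7704 and 7623 FPKM at week 2. It was the model with the most reads in both week 2 libraries, with 1.33% and 1.32% of them, and held 0.042% and 0.047% in the week 4 libraries. Its rank by reads was 382 and 360 at week 4. In the edgeR test it fell by 4.92 ± 0.45 on the log2 scale (SE), at an adjusted p of 4.89e-05, and this model alone made up 1.28 percentage points of the lost reads.

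Model jgi|Obbri1|658935|CE658758_8524, of 1564 bases, had the largest rise in FPKM within this choice, with 6505 and 4872 FPKM at week 4, against 2174 and 1977 FPKM at week 2. Among all models it held the most reads in week 4 replicate 1 and the second most in replicate 2. The week 4 libraries differed from each other more than those of week 2, and all lay above week 2, as the choice required. In the edgeR test it rose by 1.42 ± 0.31 on the log2 scale (SE), at an adjusted p of 0.00567. This p was 0.0596 without week 2 replicate 2, and 0.00103 to 0.0476 with another library left out.

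Model jgi|Obbri1|793336|fgenesh1_kg.72_#_48_#_Locus2257v1rpkm56.27, of 1383 bases, had 4153 and 4345 FPKM at week 4, against 1257 and 1409 FPKM at week 2. It ranked 4 in both week 4 libraries by FPKM, against 47 and 38 in those of week 2. In the edgeR test it rose by 1.64 ± 0.22 on the log2 scale (SE), at an adjusted p of 0.000335.

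By week 8 these models had gone different ways. At weeks 2, 4 and 8, model 658935 averaged 2076 ± 139, 5688 ± 1154 and 2012 ± 823 FPKM (SD, n = 2). Model 793336 averaged 1333 ± 108, 4249 ± 136 and 1222 ± 59.9 FPKM (SD, n = 2). Both thus had their highest level at week 4, which their choice by a large rise from week 2 to week 4 favours. For model 790668 the means were 12474 ± 271, 3133 ± 11.3 and 964 ± 326 FPKM (SD, n = 2). For model 641437 they were 7664 ± 57.2, 257 ± 19.96 and 116 ± 74.7 FPKM (SD, n = 2). Both had their lowest mean at week 8, where the 2 libraries stood farther apart in proportion. Later changes were not tested here.

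**Figure D4:**
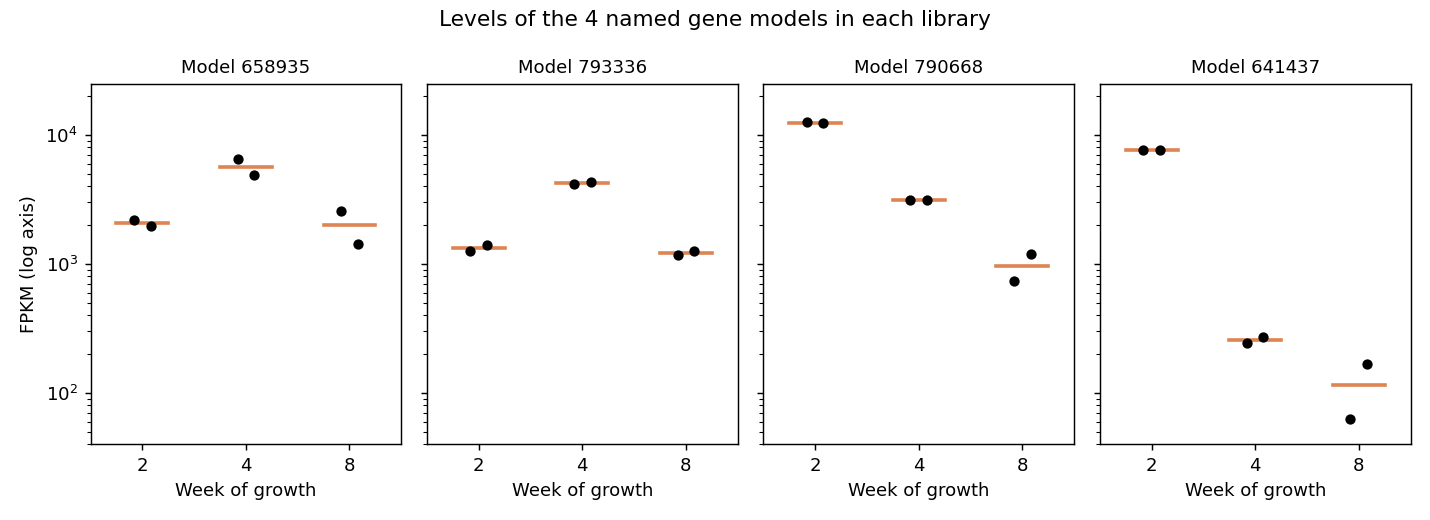
Points are the FPKM values (log axis) of single libraries at weeks 2, 4 and 8, and orange lines are the means of the 2 libraries of a week. Models 658935 and 793336 are highest at week 4, and models 790668 and 641437 are highest at week 2. Their choice by the change from week 2 to week 4 favours these orders.

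The 2 models of highest FPKM at week 4 were short and shared reads with similar models, so their separate levels are uncertain. The first, of 350 bases, had 23595 and 20013 FPKM at week 4, against 10768 and 11619 FPKM at week 2. The second, of 279 bases, had 21490 and 18302 FPKM at week 4, against 9566 and 10375 FPKM at week 2. They held ranks 1 and 2 by FPKM in both week 4 libraries and ranks 2 and 3 in both week 2 libraries. They rose by 0.93 ± 0.32 and 0.96 ± 0.32 on the log2 scale (SE), at adjusted p values of 0.0453 and 0.0383 by edgeR. They were picked for their rank at week 4, which favours a rise.

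Long models rose more often than they fell. Among the longest quintile of the tested models, of 2128 to 15290 bases, 483 of 2172 had risen and 267 had fallen, which is 22.2% and 12.3%, against 19.5% and 17.7% of all models. The median log2 fold change was 0.09 there and -0.001 over all models. In the other length quintiles, 17.3% to 19.7% had risen and 16.8% to 20.9% had fallen. More models of the longest quintile had risen than fallen in all 15 alternatives counted, with 219 to 546 risen and 130 to 348 fallen, the lowest counts coming from fits without a week 2 library. The mean model length over all reads was 1985 and 2096 bases in the week 4 libraries, against 1881 and 1897 bases in those of week 2. Both week 4 values were above both week 2 values (exact two-sided permutation test, p = 0.33, the smallest possible).

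The shares differed by level. In the highest quartile by mean FPKM, 34.9% of the models of the longest quintile had risen and 17.9% had fallen, against 24.4% and 29.8% of the other models. In the third quartile, 22.4% and 11.6% had, against 16.7% and 23.4%. In the second quartile, 14.7% had risen and 11.6% had fallen, against 18.1% and 17.0%, so that long models had both fewer rises and fewer falls. In the lowest quartile the shares were close, 18.2% risen and 7.44% fallen, against 15.96% and 7.04%. Libraries of one week differed by length as well. The mean model length over all reads differed by more between the libraries of week 4 than between those of week 2. In the highest quartile by FPKM, the median log2 difference of week 4 replicate 2 from replicate 1 was 0.002 in the longest quintile and -0.12 in the others. Over all levels, the median log2 difference of week 4 replicate 2 from replicate 1 was -0.12 in the longest quintile and -0.11 over all models, and that of week 2 replicate 2 from replicate 1 was 0.02 and -0.02.

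**Figure D5:**
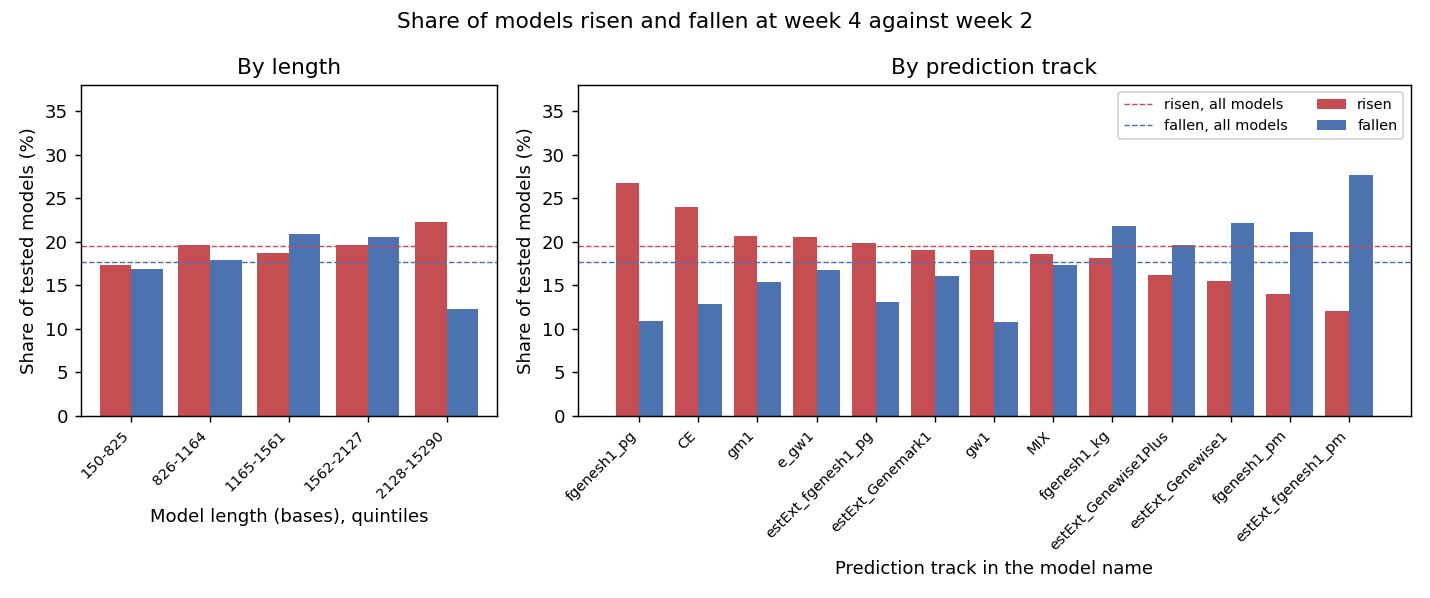
Bars give the share of tested models, in percent, that had risen (red) or fallen (blue), by quintiles of model length in bases (left) and by the prediction track in the model name (right). Dashed lines mark the shares over all models, 19.5% risen and 17.7% fallen, and the longest quintile shows 22.2% risen and 12.3% fallen.

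The name of a model tells which prediction track it came from, and the tracks differed in direction. FGENESH and GeneMark are gene prediction programs, and Genewise builds models from similarity to known proteins. The fgenesh1_kg models named above also carry a locus and an rpkm value in their names. That track may therefore draw on more than the genome sequence, and the files do not define the tracks further. Among the 2663 models of the track fgenesh1_kg, 482 had risen and 580 had fallen (18.1% and 21.8%). Among the 2247 models of the track CE, 539 had risen and 288 had fallen (24.0% and 12.8%). The track fgenesh1_pg had the highest share of risen models, 71 of 266 (26.7%), with 29 fallen. The track estExt_fgenesh1_pm had the highest share of fallen models, 85 of 308 (27.6%), with 37 risen. CE models rose more often than they fell, and fgenesh1_kg models fell more often than they rose, in all 15 alternatives counted. For fgenesh1_kg models the margin depended on the scaling. It was narrow with total counts only (503 risen and 510 fallen) and with limma on log2(FPKM + 1) (483 and 501). With upper quartile scaling it was wide (452 and 615).

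The tracks differed in level too. The median level was 15.1 FPKM at week 4 and 12.7 FPKM at week 2 for CE models, and 30.9 FPKM at week 4 and 31.1 FPKM at week 2 for fgenesh1_kg models. Within quartiles of mean FPKM the difference was still seen. In the highest quartile 33.4% of the CE models had risen and 27.6% had fallen, against 23.2% and 29.7% of the fgenesh1_kg models. In the lowest quartile 18.3% and 4.75% had, against 15.9% and 8.17%. Of the CE models 18.6% shared reads with similar models, against 10.4% of the fgenesh1_kg models. With such models left out, 454 CE models had risen and 232 had fallen, and 434 fgenesh1_kg models had risen and 516 had fallen.

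Models that shared reads with similar models, as near-identical gene copies do, rose more often than they fell. Their expected count was not whole in at least 1 library, and their separate levels are uncertain. Of 1226 tested, 303 had risen and 162 had fallen (24.7% and 13.2%), against 18.8% and 18.3% of the 9663 other models. In the third quartile by mean FPKM, 31.6% of them had risen and 16.9% had fallen, against 17.1% and 20.4% of the others. In the highest quartile, 28.4% had risen and 25.8% had fallen, against 25.9% and 28.0%. More of them had risen than fallen in all 15 alternatives counted. Such models are not independent of each other, because a read divided between copies moves several counts at once.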

How the data were processed

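Per the file headers, each of the 6 deposited tables holds the length, expected count and FPKM of each gene model. Per the submitters' processing notes, BWA, Bowtie and RSEM were used; their versions and settings and the genome build were not given in the sources used here. Expected counts, as the authors deposited them, are estimated, unnormalized reads; the authors' FPKM values are scaled by model length and library size and rounded. A model absent from a table was taken as 0. Counts within 0.005 of a whole number were taken as whole.

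Expected counts were rounded and tested with edgeR 4.0.16 (robust quasi-likelihood test, R 4.3.3) after TMM scaling and filterByExpr with a minimum count of 10. One model was fitted to all 6 libraries, with a mean for each week as its terms, and the contrast was week 4 minus week 2. P-values were adjusted over 10889 models by the Benjamini-Hochberg method, with calls at an adjusted p below 0.05. Tested models held 99.90% to 99.92% of the reads of weeks 4 and 2. The procedure was tested on simulated counts. Alternatives used DESeq2 1.42.0, limma 3.58.1, other scalings, filters and sample sets.

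Named models are the 2 with the largest rise and the 2 with the largest fall in mean FPKM, among called changes of at least 2-fold with no overlap between the weeks and whole counts in the 4 libraries. Lists by product name could not be filled, because the files give no products, and are not analysed here. The comparison, lists and rules were chosen with earlier results of these data known. The classes by level, size and consecutive number, and the alternatives for classes, were set after the data had been examined.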

Additional observations from a re-analysis of the deposited data

How the results depend on the processing

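Scaling, tool, filter and sample set changed the counts of calls. The number of changed models was 4050, and 2014 with a bound of at least 2-fold. Leaving out 1 library gave 2053 to 4339 changed models, and 1652 to 2306 of at least 2-fold. The lowest counts, 2053 and 2218, came without week 2 replicate 1 and replicate 2. There the spread of a week with a lone library is taken from the other weeks, as it is without a week 4 or a week 8 library. The week 2 pair was the closest of the series, with 4.15% of the reads on different models. The week 4 pair had 12.9% and the week 8 pair 8.73%. How far the calls rest on the closeness of the week 2 pair was not tested. Of the 4050 models, 1787 were called in the same direction in each of 15 alternatives (6 left-out libraries and 9 other settings), among them 1535 of the 2014 changed at least 2-fold. None of the 4050 changed sign in any of the 16 alternatives, the one without shared-read models included. Every called model, the 4 named ones included, had both week 4 libraries on the same side of both week 2 libraries by FPKM. Leaving out 1 library could therefore hardly turn a sign, and the unchanged signs give the calls no separate support. DESeq2 called 3408 models. Risen models made up 49.98% of the calls with upper quartile scaling and 56.8% with total counts only, against 52.4% with TMM. Same-numbered libraries of weeks 2 and 4 did not deviate together (r = 0.01 across models of the difference of replicate 1 from replicate 2), so the numbers were not taken as pairs, and a replicate block in the fit gave 3688 changed models. Of 60 alternative fits of the 4 named models, 1 lost its call, and none changed sign. With 2 libraries per week, changes of scarce models were the least detectable.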

Other observations

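Names of most tracks hold a further number that JGI model names use for the assembly scaffold, which was not checked against an assembly here. It could be read for 7498 tested models and took 485 values. Of the 165 values with at least 15 models, 160 held both risen and fallen models. The median share was 18.2% for risen and 18.2% for fallen models, against 19.5% and 17.7% of all tested models. The extremes, chosen after they were seen, were number 120 with 7 of 16 models risen and 1 fallen, number 186 with 8 of 15 fallen and 1 risen, and number 100 with 9 of 25 fallen and none risen. These counts are small, and the share of one such group was not tested.

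In the track fgenesh1_kg, 463 pairs of tested models had the same scaffold number and consecutive running numbers. Both members had fallen in 41 pairs, both had risen in 16, and they had moved in opposite directions in 25. Of all models of this track, 18.1% had risen and 21.8% had fallen, and the counts of pairs were not tested against these shares. Pearson's r of their log2 fold changes was 0.18 across pairs, which share libraries and overlap in members. A single run of 3 consecutive models was called in one direction, on number 23, with log2 fold changes from 0.78 to 5.59. Their mean levels were 46.0 to 83.0 FPKM at week 4, against 1.69 to 33.6 FPKM at week 2.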
